A study of Mus musculus with 6 samples.

Results

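The genes described here are 7 that act in or around NF-kB signalling: Nfkbia, Tnfaip3, Nfkb1, Rela, Il1rl1, Il1r1 and Vcam1. They were taken by symbol from a table of 15796 genes. All 7 were listed in it, and all 7 were among the 13120 genes that were tested. RNA sequencing was done on MC3T3-E1 cells, a mouse pre-osteoblastic line. The 3 control libraries came from cells given an EGFP plasmid (genotype WT in the labels), and the 3 overexpression libraries from cells given an Hsd11b1 plasmid. All 6 libraries had been incubated with 11-DHC (11-dehydrocorticosterone), which the product of Hsd11b1, 11β-HSD1, turns into active corticosterone. The labels give no dose, no time and no inflammatory stimulus, and they do not say whether replicates were separate cultures or whether the cells were a pool or a clone, so the p-values reflect the spread among these libraries, which may be technical. No library without 11-DHC was included, so an action of the enzyme and an action of the steroid it makes cannot be told apart.

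NF-kB is a dimer of Rel family proteins, most often the subunits p65 (encoded by Rela) and p50 (cut from the product of Nfkb1). IκBα, the product of Nfkbia, holds the dimer in the cytoplasm until signals from interleukin 1 family or TNF receptors have it degraded. The freed dimer switches on Nfkbia again, and also Tnfaip3, which encodes the ubiquitin-editing enzyme A20, so both genes form negative feedback loops. Glucocorticoids are known to damp NF-kB output, and raised expression of IκBα is among the mechanisms described for some cell types. In bone, interleukin 1 and TNF signals through NF-kB restrain osteoblasts and promote osteoclast formation.

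The feedback genes and one receptor were higher with Hsd11b1, while neither subunit passed the test. Il1rl1 (the receptor for interleukin 33) rose 2.63-fold, Tnfaip3 rose 1.63-fold and Nfkbia rose 1.53-fold in mean FPKM (fragments per kilobase of exon, scaled to library size). Vcam1, an adhesion molecule of the vessel wall and stroma, fell to 0.79 of its control level. Nfkb1, Rela and Il1r1 did not pass the test. A gene was called when its adjusted p was under 0.05 (limma on log2(FPKM + 1), adjusted over all genes tested). Thus 3 of the 7 genes were called higher, beside 6.22% of all genes tested, and 1 was called lower, beside 5.84%. The 7 genes were chosen with earlier results of these data known.

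**Figure D1:**
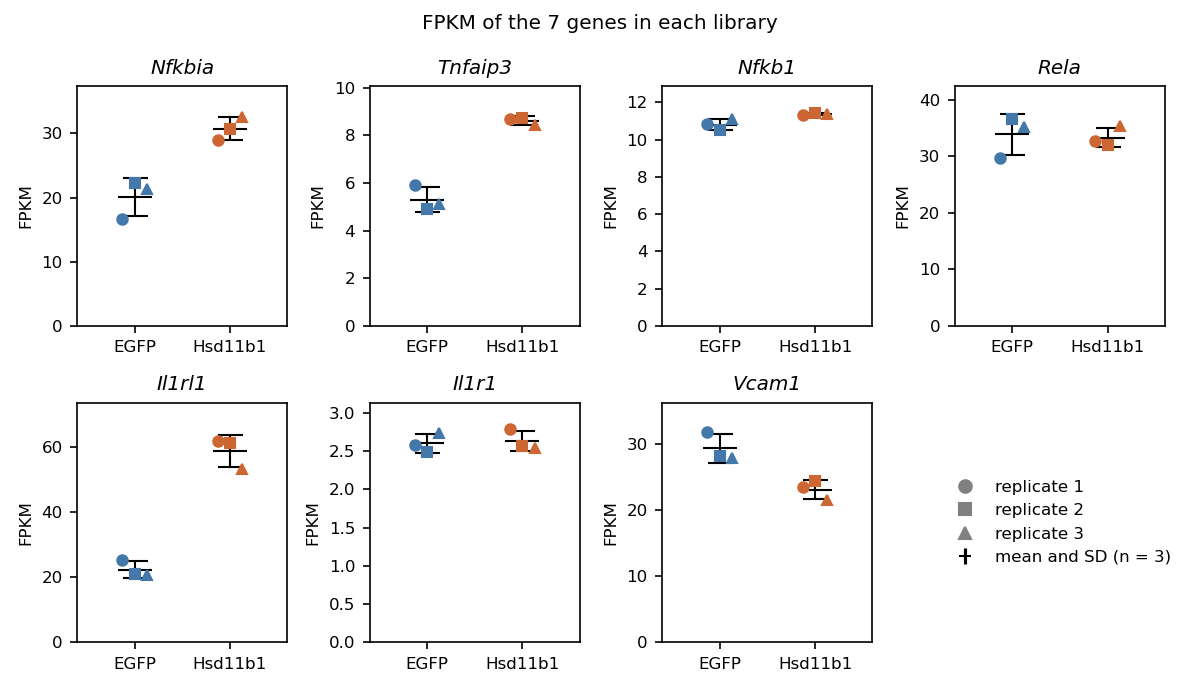
FPKM (vertical axes, from 0) of each of the 7 genes in the 3 EGFP control and 3 Hsd11b1 overexpression libraries, with the mean and SD of each group (n = 3). The groups lie apart for Il1rl1, Tnfaip3, Nfkbia and Vcam1 and, by a narrow margin, for Nfkb1, and overlap for Rela and Il1r1. Groups also lay apart for 24 of 60 other pathway genes tested, and the share over all genes is not given here.

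The 3 controls had Hsd11b1 FPKM of 1.90, 0.404 and 0.275, in order of their number, and the overexpression libraries 323, 316 and 345, as the labels say. Plasmid and endogenous transcripts were not separated. Control 1, with the highest Hsd11b1 FPKM of the controls, was also the lowest control for Nfkbia and Rela and the highest for Tnfaip3, Il1rl1 and Vcam1, and its part in the results was not tested beyond leaving it out. The libraries held 16264246 to 34948138 reads in the controls and 18290781 to 58665345 with overexpression, totals recovered from the FPKM. Of marker genes, 7 of 9 osteoblast genes were listed, and their summed FPKM was 2592 to 2864 in controls and 2396 to 2455 with overexpression. Alpl and Bglap were not analysed here, and the 2 listed markers that passed the test moved in opposite directions. Dmp1 fell to 0.18 of its control FPKM and Runx2 rose from 12.1 ± 0.692 to 14.6 ± 0.501 (limma adjusted p = 0.0442). Ibsp, too low to be tested, had 0.0243 to 0.208 in the controls and 0.973 to 1.06 with overexpression. Marker genes of other cells that could carry Il1rl1 or Vcam1 are given too, and a part of such cells in the results was not tested. The 4 of 7 macrophage genes listed (Lyz2, Cd68, Cd14 and Csf1r) summed to 18.2 to 20.1 in controls and 17.4 to 18.3 with overexpression. Lyz2 was the highest of them, with 9.08 ± 0.546 and 8.69 ± 0.367. Ptprc, Adgre1 and Itgam were not analysed here, so the sum does not show that macrophages were present. The 2 of 6 endothelial genes listed (Pecam1 and Tek) summed to 0.240 to 0.283 and 0.346 to 0.408. Of T lymphocyte genes 1 of 4 was listed (Gata3, 0.475 to 0.541 and 0.296 to 0.371), and 0 of 5 mast cell genes were. In bulk RNA, fewer cells of a type and less RNA per cell cannot be told apart.

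Nfkbia (ENSMUSG00000021025) lies on chromosome 12, 55489410 to 55492647, minus strand, in GRCm38, the build called mm10. Controls 1, 2 and 3 had FPKM of 16.7, 22.2 and 21.3, from 536, 1251 and 557 reads, and the overexpression libraries, in the same order, 29.0, 30.7 and 32.6, from 853, 921 and 3076 reads. The lowest overexpression library stood above the highest control, and control 1 was the low one of its group. The mean went from 20.1 ± 2.96 to 30.7 ± 1.80 (SD, n = 3). On the log2(FPKM + 1) scale the difference was 0.60 (SE 0.11, 95% interval 0.36 to 0.84, limma adjusted p = 0.00771). Without control 1 it was 0.48 (adjusted p = 0.00782). Over all 17 alternative settings it ran from 0.48 to 0.67 and was called in each.

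Tnfaip3 (ENSMUSG00000019850; chromosome 10, 19000910 to 19015657, minus strand) had a lower level than Nfkbia and a difference of nearly the same size. Its FPKM was 5.89, 4.90 and 5.11 in the controls, from 849, 1237 and 601 reads, and 8.69, 8.74 and 8.43 with overexpression, from 1149, 1178 and 3572 reads. The groups did not overlap. Control 1 was the high one of its group here, whereas it was the low one for Nfkbia. The mean went from 5.30 ± 0.524 to 8.62 ± 0.169, with a log2 difference of 0.61 (SE 0.08, 95% interval 0.44 to 0.79, limma adjusted p = 0.00154). Over the 17 alternatives the difference ran from 0.40, with a pseudocount of 5, to 0.71, with voom on recovered reads, and all 17 gave a call.

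Because both feedback genes were higher together, the 250 bases before their RefSeq start sites (build GRCm38.p6) are shown, written 5′ to 3′ on the gene's strand. Capitals mark matches on either strand to the NF-kB consensus, a block of G, a purine, any bases, pyrimidines and a closing pair of C. The Nfkbia window is chr12:55492648-55492897, minus strand. The Tnfaip3 window is chr10:19015411-19015660, minus strand.
Nfkbia: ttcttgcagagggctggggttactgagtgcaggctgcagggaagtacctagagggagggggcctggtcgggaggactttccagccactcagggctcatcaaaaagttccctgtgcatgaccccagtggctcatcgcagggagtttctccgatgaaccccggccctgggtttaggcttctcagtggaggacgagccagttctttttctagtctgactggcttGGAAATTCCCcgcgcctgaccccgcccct
Tnfaip3: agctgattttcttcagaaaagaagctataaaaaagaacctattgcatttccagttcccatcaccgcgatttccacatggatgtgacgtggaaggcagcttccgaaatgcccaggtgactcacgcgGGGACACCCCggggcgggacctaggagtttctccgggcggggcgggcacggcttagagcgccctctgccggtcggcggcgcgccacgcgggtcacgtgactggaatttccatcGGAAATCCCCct
Nfkbia has 1 match, GGAAATTCCC, from 29 to 20 bases before the start. Tnfaip3 has 2 matches, GGGACACCCC from 125 to 116 and GGAAATCCCC from 12 to 3 bases before the start. Of 32851 mouse windows of this length, 7.25% hold at least 1 match and 1.03% hold 2 or more. No match shown overlaps a match to another motif searched. The hexamer AGAACA, an arm of the glucocorticoid receptor element, is in neither window shown, and 16.1% of all windows hold it on either strand. It does occur from 11 to 6 bases before a second RefSeq start of Tnfaip3, in a window without an NF-kB match. On the opposite strand it also occurs from 131 to 126 bases before a start of Il1r1, a gene that was not called. A match is a run of letters and not a measured binding site, and elements farther away were not searched. RefSeq windows were found for 5 of the 7 genes, 8 windows in all, of which 3 hold an NF-kB match (Nfkbia, Tnfaip3 and 1 of the 2 windows of Il1r1). Nfkb1 and Vcam1 had no window in the table used.

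The subunit genes stayed close to their control levels. Rela (ENSMUSG00000024927; chromosome 19, 5637483 to 5648130) had FPKM of 29.7, 36.6 and 35.2 in the controls and 32.7, 31.9 and 35.3 with overexpression. All 3 overexpression values lay inside the control range. The log2 difference was -0.02 (SE 0.09, 95% interval -0.22 to 0.18, limma adjusted p = 0.931), and its sign turned in 3 of the alternatives that left out 1 library. Nfkb1 (ENSMUSG00000028163; chromosome 3, 135584655 to 135691547) had 10.9, 10.5 and 11.1 in the controls and 11.3, 11.5 and 11.4 with overexpression. These groups do not overlap, but the difference was only 0.07 (SE 0.06, 95% interval -0.07 to 0.21, adjusted p = 0.543), and no alternative gave a call. Nfkb1 varied least between replicates of the 7 genes, by 2.79% of the mean in controls and 0.558% with overexpression. The other subunit genes named were Nfkb2, whose product is cut to p52, with 46.4 ± 3.08 and 45.8 ± 3.87 (adjusted p = 0.920), and Relb, with 5.98 ± 0.703 and 6.33 ± 0.720 (adjusted p = 0.728). Of all 5 subunit genes, 0 passed the test, and the intervals above limit Nfkb1 and Rela to small changes without showing that they did not change.

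Both feedback genes were also set against a subunit gene in the same library. The ratio of Nfkbia to Rela FPKM was 0.562, 0.607 and 0.604 in the controls and 0.886, 0.960 and 0.924 with overexpression. Control 1, low for both genes, was close to the other controls on this scale. The mean ratio was 0.591 ± 0.0256 in controls and 0.923 ± 0.0371 with overexpression (SD, n = 3). An exact two-sided permutation test gave p = 0.1, the smallest that 3 against 3 libraries can reach. The other ratios to a subunit scattered more among the controls. Tnfaip3 to Rela was 0.198, 0.134 and 0.145 in the controls and 0.266, 0.274 and 0.239 with overexpression, with control 1 the high one. Nfkbia to Nfkb1 was 1.54, 2.12 and 1.92 in the controls and 2.56, 2.68 and 2.86 with overexpression, with control 1 the low one. Neither overlapped between groups (exact permutation p = 0.1 each). The ratios were chosen after the values had been seen, and they describe RNA and not protein.

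**Figure D2:**
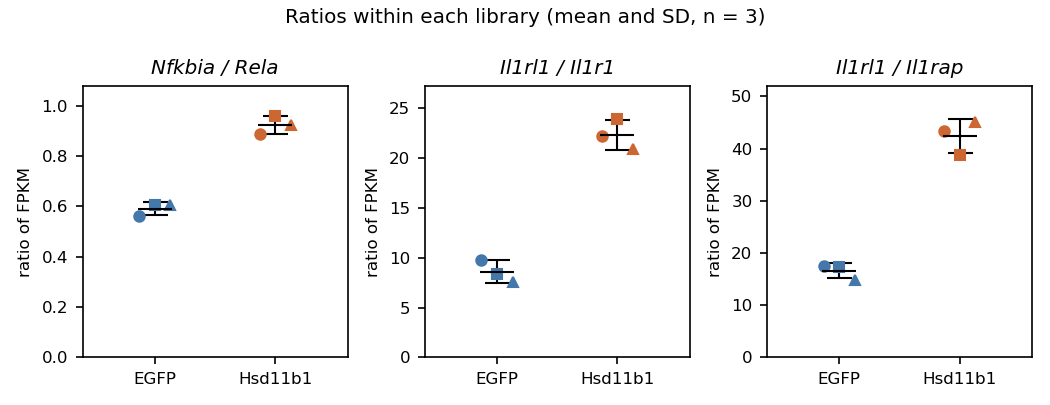
Ratio of FPKM between genes in the same library (vertical axes, from 0) for the 3 control and 3 overexpression libraries, with mean and SD (n = 3). Nfkbia over Rela was 0.562 to 0.607 in controls and 0.886 to 0.960 with overexpression, and Il1rl1 over its partner Il1rap was 14.9 to 17.6 and 38.7 to 45.1.

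Il1rl1 encodes ST2, which in its membrane form binds interleukin 33 and in its shorter secreted form acts as a decoy for it. The deposited values are per gene, so these forms are not told apart. Il1rl1 (ENSMUSG00000026069) lies on chromosome 1, 40429570 to 40465415, plus strand. Its FPKM was 25.4, 20.9 and 20.7 in the controls, from 3484, 5043 and 2320 reads. With overexpression it was 61.7, 61.3 and 53.1, from 7777, 7887 and 21473 reads. Every overexpression library had more than the highest control, and overexpression 3, the deepest library, was the low one of its group. The mean went from 22.3 ± 2.63 to 58.7 ± 4.86, a log2 difference of 1.36 (SE 0.10, 95% interval 1.14 to 1.58, limma adjusted p = 9.71e-05). Of all 13120 genes, 52 had a smaller p, and 32 had a larger positive difference. The alternatives gave 1.22 to 1.46, with a call in 17 of 17. In the authors' deposited table Il1rl1 has a log2 fold change of 1.39 and is the only one of the 7 past a change of 1 on the log2 scale. The same authors' deposited table gives 0.70 for Tnfaip3, 0.61 for Nfkbia and -0.35 for Vcam1.

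**Figure D3:**
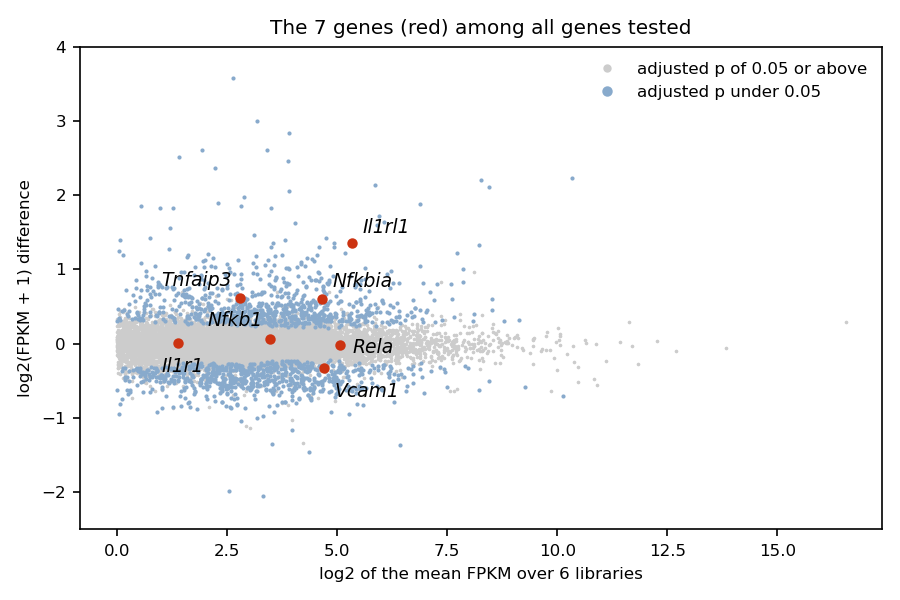
Difference in log2(FPKM + 1), overexpression minus control, against the log2 of the mean FPKM for the 13120 genes tested, with the 7 genes in red and genes with an adjusted p under 0.05 in blue. Il1rl1 stands at 1.36, Tnfaip3 and Nfkbia at 0.61 and 0.60, Vcam1 at -0.33, and the other 3 near 0. Hsd11b1, at 7.57, is beyond the axis.

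RefSeq gives Il1rl1 a pair of start sites 10059 bases apart, and in the mouse the choice of promoter is known to differ between haematopoietic cells and fibroblasts. The 250 bases before each are shown to set these promoters side by side, on the plus strand of GRCm38.p6, at chr1:40429320-40429569 (upstream) and chr1:40439379-40439628 (downstream). Capitals mark GATAAG, a motif of GATA factors, on either strand.
Il1rl1 upstream: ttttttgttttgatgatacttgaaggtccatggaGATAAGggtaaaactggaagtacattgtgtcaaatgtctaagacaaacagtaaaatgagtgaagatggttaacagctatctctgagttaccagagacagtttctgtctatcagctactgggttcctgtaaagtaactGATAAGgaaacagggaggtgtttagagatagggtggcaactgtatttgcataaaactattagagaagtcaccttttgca
Il1rl1 downstream: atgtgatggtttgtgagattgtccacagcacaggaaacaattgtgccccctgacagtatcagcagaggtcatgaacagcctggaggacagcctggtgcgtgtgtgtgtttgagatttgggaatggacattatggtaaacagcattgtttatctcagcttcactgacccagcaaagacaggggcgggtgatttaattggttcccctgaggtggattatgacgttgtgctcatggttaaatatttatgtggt
The upstream window holds GATAAG at 2 places, from 216 to 211 and from 79 to 74 bases before the start, and the downstream window holds no match. At least 1 match is in 6.55% of all windows, and 2 or more are in 0.353%. Neither window holds the NF-kB consensus or AGAACA. Which start site these cells used cannot be read from values per gene.

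Other interleukin 1 family receptors were at low levels. Il1r1, the signalling receptor for interleukin 1 itself (ENSMUSG00000026072; chromosome 1, 40225080 to 40317257), had FPKM of 2.59, 2.49 and 2.73 in the controls and 2.78, 2.57 and 2.54 with overexpression, from 283 to 950 reads a library. The groups overlapped, and the log2 difference was 0.01 (SE 0.07, 95% interval -0.16 to 0.18, limma adjusted p = 0.950). Il1rap, the co-receptor shared by the interleukin 1 and interleukin 33 receptors, had 1.35 ± 0.122 and 1.39 ± 0.205 (adjusted p = 0.908). Il1rl1 FPKM was therefore 14.9 to 17.6 times that of Il1rap in control libraries and 38.7 to 45.1 times with overexpression. Against Il1r1 it was 7.57 to 9.80 times and 20.9 to 23.9 times. Il18rap, the accessory chain of the interleukin 18 receptor, rose from 5.95 ± 0.171 to 7.71 ± 0.430 (adjusted p = 0.0171), and lost its call without control 3, overexpression 1 or overexpression 2 (adjusted p up to 0.0858). Of the 9 receptors in the family list, 4 were tested. Of these, 2 rose, beside 6.22% of all genes tested, and 0 fell, beside 5.84%. The count includes Il1rl1, which was chosen with earlier results of these data known, so it is a description. Besides the 7 genes, 2 receptors were tested and 1 rose (Il18rap). Il1rl2, Il18r1 and Sigirr fell below the filter (mean FPKM of 1), and Il1r2 and Il1rapl1 were not analysed here. Of 8 ligands and soluble antagonists, 2 were tested and 0 passed. Il18 had 6.63 ± 0.799 and 6.17 ± 0.450, and its binding protein Il18bp 4.67 ± 0.271 and 4.26 ± 0.145. Il1a, Il1b and Il33 were not analysed here.

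Vcam1 encodes an adhesion molecule that binds leukocyte integrins and is a textbook NF-kB target. It lies on chromosome 3, 116109949 to 116129688, minus strand (ENSMUSG00000027962). Its FPKM was 31.8, 28.2 and 27.8 in the controls, from 5625, 8741 and 4013 reads, and 23.4, 24.3 and 21.5 with overexpression, from 3798, 4021 and 11176 reads. All 3 overexpression libraries were below the lowest control. The mean went from 29.3 ± 2.21 to 23.1 ± 1.44, a log2 difference of -0.33 (SE 0.08, 95% interval -0.51 to -0.15, limma adjusted p = 0.0270). Leaving out control 1, control 3 or any overexpression library ended the call, with adjusted p from 0.0546 to 0.0768, as did leaving out both of the deepest libraries (0.0892). Without control 2 the adjusted p was 0.0457. The direction was the same in all 17 alternatives, from -0.37 to -0.26. An antisense RNA gene, Gm43109, shares 61 exonic bases with Vcam1, whose exons span 8870 bases. Gm43109 had FPKM of 34.2, 25.0 and 23.4 in controls and 18.2, 23.3 and 21.2 with overexpression (log2 difference -0.37, adjusted p = 0.147). The strand setting of the counting is not given, so reads in the shared bases cannot be told apart. Among chains of the integrins that bind VCAM-1, Itgb1 had 162 ± 8.63 and 168 ± 12.0 and Itgb7 4.55 ± 0.723 and 4.10 ± 0.365, and neither passed. Of the alpha chains, Itga9 fell below the filter, with 0.342 ± 0.0817 and 0.415 ± 0.0519, and Itga4 was not analysed here.

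**Figure D4:**
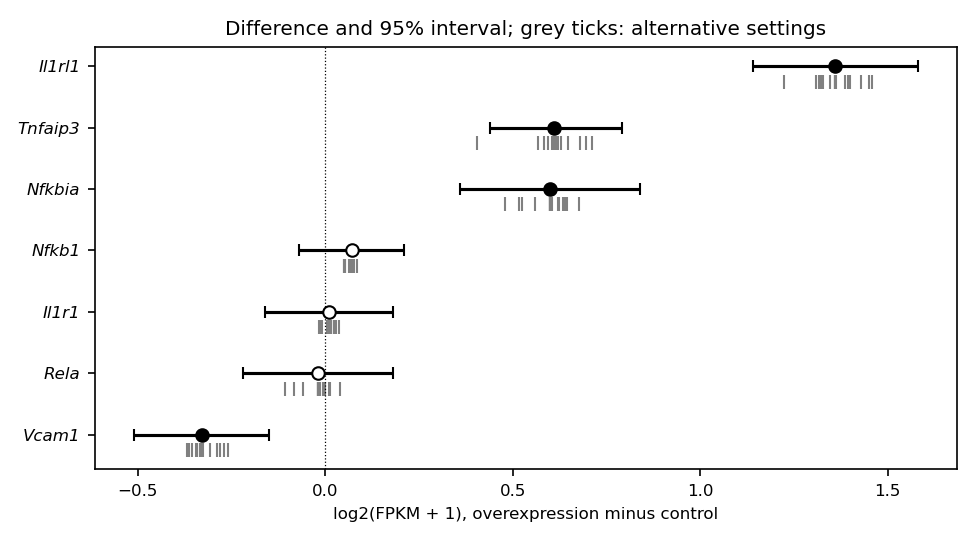
Difference in log2(FPKM + 1), overexpression minus control, with its 95% interval for each of the 7 genes (filled circle, adjusted p under 0.05) and the values under the alternative settings (grey ticks). Il1rl1, Tnfaip3 and Nfkbia stay above 0 and Vcam1 below 0 in every alternative, and Rela and Il1r1 fall on both sides of 0.

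The order of the 7 genes by FPKM changed between the groups. In controls it ran Rela (33.9 ± 3.63), Vcam1, Il1rl1, Nfkbia, Nfkb1, Tnfaip3 and Il1r1 (2.60 ± 0.123). The libraries of Rela and Vcam1 overlapped, as did those of Il1rl1 and Nfkbia, while the other neighbours were apart. With overexpression Il1rl1 came first and Rela (33.3 ± 1.74) and Nfkbia next, with overlapping libraries, and then Vcam1, Nfkb1, Tnfaip3 and Il1r1 (2.63 ± 0.132), each apart from its neighbours.

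The rest of the pathway was counted from 10 lists of 96 genes, 89 of them besides the 7. Of these 89, 60 were tested, 9 fell below the filter and 20 were not analysed here. Of the 60, 9 rose (15.0%, against 6.22% of all genes tested) and 3 fell (5.0%, against 5.84%), and 48 did not pass. The lists were chosen with earlier results of these data known, so these shares are a description and not a test of the pathway. The 9 became 4 without control 3 or without overexpression 2 and 5 without overexpression 1, and the 3 became 1 without overexpression 1. Their median log2 difference was 0.02, against -0.01 for all genes tested. Of 5 tested genes of the IκB kinases and their relatives, 0 passed. Chuk, a subunit of the kinase complex that marks IκB for degradation, had 15.2 ± 0.511 and 15.0 ± 1.48. Tbk1, which encodes a related kinase outside that complex, had 20.5 ± 1.79 and 20.3 ± 1.86. Of 15 tested adaptors, 1 rose, beside 6.22% of all genes tested. This gene, Myd88, carries the signal from interleukin 1 and Toll-like receptors and went from 14.0 ± 1.32 to 18.1 ± 1.24 (adjusted p = 0.0282). Its call ended without control 1, control 3, overexpression 2 or overexpression 3 (adjusted p up to 0.106). Among the other IκB genes 3 were tested and 0 passed. Nfkbib (IκBβ) had 6.13 ± 0.704 and 8.09 ± 1.19, with groups apart (adjusted p = 0.0849), and Nfkbie (IκBε) 10.8 ± 0.993 and 9.62 ± 0.471 (adjusted p = 0.299).

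Besides Tnfaip3, 10 genes that end NF-kB signals were tested, and 2 of them rose, beside 6.22% of all genes tested. Tnip2, which encodes an A20-binding protein, rose from 7.96 ± 0.353 to 9.61 ± 0.138 (adjusted p = 0.0413), and N4bp1 from 13.7 ± 0.194 to 16.1 ± 0.595 (adjusted p = 0.0480). Neither call survived the removal of any single library, and over all alternatives the adjusted p reached 0.145 for Tnip2 and 0.178 for N4bp1. Their log2 differences were 0.24 and 0.22, against 0.61 for Tnfaip3. Of 4 tested TNF family receptors, 1 fell, beside 5.84% of all genes tested, and 3 did not pass. Tnfrsf12a (the receptor for TWEAK) fell from 125 ± 9.31 to 87.1 ± 13.6 (adjusted p = 0.0171). Its call was lost without control 2, overexpression 1 or overexpression 2 (adjusted p up to 0.0724).

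The NF-kB target genes that were tested moved both ways. Besides Vcam1, 14 were tested, from a list of 25 chosen with earlier results of these data known. Il6 and Icam1 fell below the filter. Cxcl1, Cxcl2, Cxcl5, Csf2, Csf3, Mmp3, Nos2 and Tnf were not analysed here. Of all genes tested, 6.22% were called higher and 5.84% lower. Of the 14, 5 rose, 2 fell and 7 did not pass. Those with the smallest p were the chemokine gene Cx3cl1, which fell to 0.42 of its control FPKM, the survival gene Bcl2l1 (1.84-fold higher), the chemokine gene Ccl5 and the collagenase gene Mmp13. Ccl5 rose from 5.54 ± 0.867 to 11.6 ± 0.189 and Mmp13 from 4.62 ± 0.198 to 8.72 ± 0.878. The other 3, named after their values were seen, were C3, which encodes complement component C3 and rose 1.66-fold, the chemokine gene Cxcl10, which rose 1.47-fold, and the chemokine gene Ccl2, which fell to 0.75. Cx3cl1, Bcl2l1, Ccl5, Mmp13 and C3 kept their calls in all 17 alternatives, while Cxcl10 and Ccl2 each lost theirs in 5. Vcam1 thus moved the same way as Cx3cl1 and Ccl2 and the opposite way to the 5 targets that rose.

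**Figure D5:**
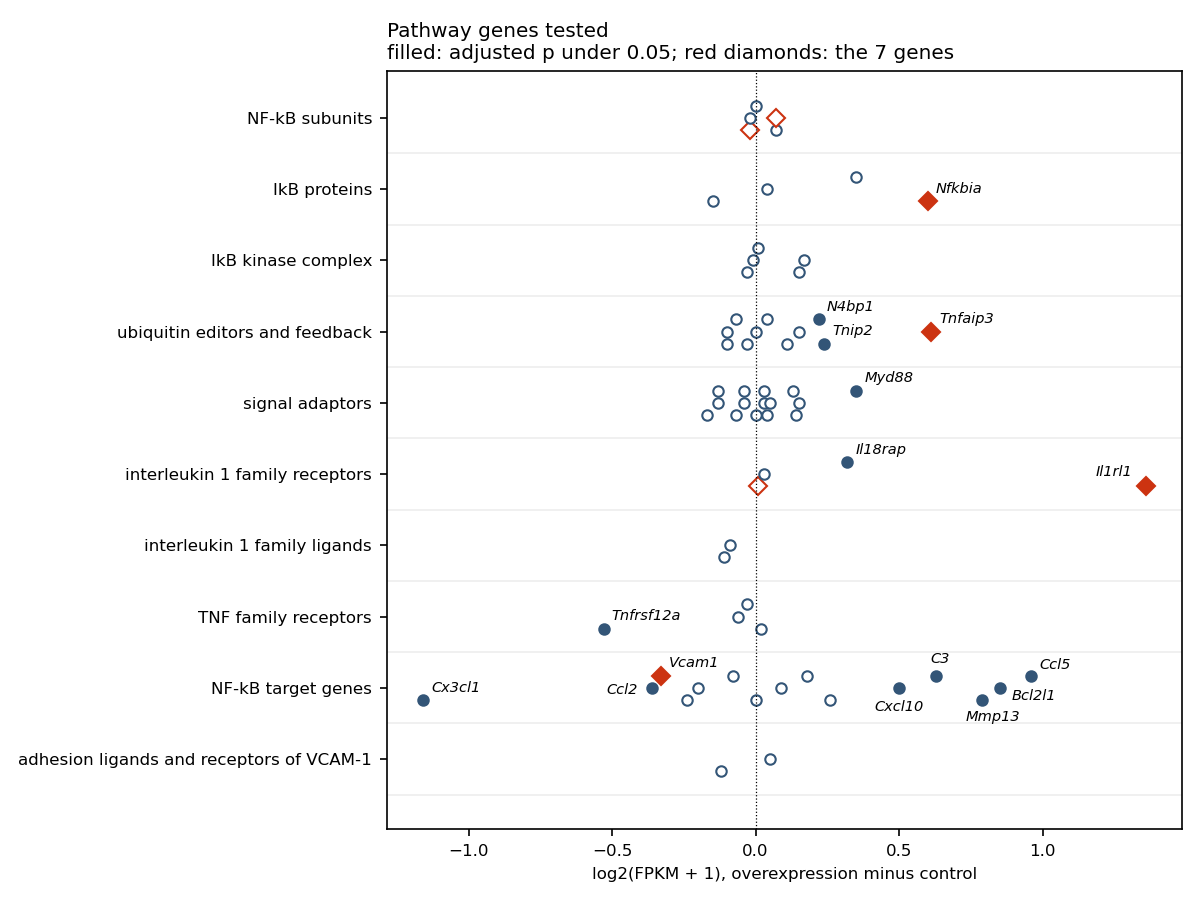
Difference in log2(FPKM + 1), overexpression minus control, of each tested gene of the 10 pathway lists (rows), with filled symbols for an adjusted p under 0.05 and red diamonds for the 7 genes. The lists of subunits and of IκB kinases with their relatives (labelled IkB kinase complex) hold 0 called genes, and the target genes lie on both sides of 0.

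The genes whose profile over the 6 libraries was most like that of Nfkbia were Vasn, Sidt2 and Suox, with Pearson's r of log2(FPKM + 1) of 0.9985, 0.9949 and 0.9942. Vasn, for example, had 29.4, 36.5 and 35.3 in controls and 46.7, 47.5 and 50.4 with overexpression, low in control 1 as Nfkbia was. For Il1rl1 they were Matn2 (0.9989), which encodes the matrix protein matrilin 2, Fam214a (0.9974) and Gclc (0.9973), which encodes the catalytic subunit of glutamate-cysteine ligase. Matn2 had 27.2, 24.8 and 24.8 in controls and 44.8, 44.8 and 42.6 with overexpression. The 6 points of each correlation fall into the 2 groups of libraries, so r mostly repeats the group difference and is a description of these libraries.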

How the data were processed

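RNA of 6 MC3T3-E1 libraries was measured. Per the submitters' processing notes, cutadapt 2.5, HISAT2 2.1.0, featureCounts 1.6.3 and build mm10 were used. For the annotation release and the strand setting, the sources used here give nothing. The authors deposited FPKM per library, and, gene by gene, log2 fold changes with raw and adjusted p-values, from a test whose tool was not stated.

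From the FPKM, the 13120 genes averaging 1 or more were fitted as log2(FPKM + 1) with limma 3.58.1 in R 4.3.3 (eBayes with a trend, overexpression against control, two-sided, Benjamini-Hochberg over all genes tested, threshold 0.05). The fit was tested on simulated data with less spread than the controls had for Nfkbia, Tnfaip3 and Il1rl1. That test therefore does not show how often the fit errs on these libraries. Adding 1 understates the difference of low genes. Read numbers came from FPKM, exon-union lengths of GENCODE M21 and the library total that made them whole: 93.7% to 94.9% of values up to 1000 reads were within 0.05 of a whole number. Those of the 7 genes were whole except for Rela.

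The 7 genes, the pathway lists and the tests were chosen with earlier results of these data known. The naming rule took the 7 genes, Hsd11b1, up to 4 list genes that passed with the smallest p, and where none passed the 2 with the highest FPKM. The 17 alternatives were pseudocounts of 0.1 and 5, median-of-ratios scaling, no filter, a filter at 5, no trend, quantile normalization, a replicate block, arrayWeights, voom on recovered reads, each library left out in turn, and both deepest libraries (control 2 and overexpression 3) left out. A second deposited table repeats part of the same rows and was not used. Promoter sequences are RefSeq's.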

Additional observations from a re-analysis of the deposited data

How the results depend on the processing

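Il1rl1, Tnfaip3, Nfkbia, Vcam1 and Nfkb1 kept their direction in all 17 alternatives, and the first 3 kept their calls, so 3 of the 7 genes were called higher throughout. Vcam1 ran from -0.368 to -0.271 with 1 library left out and was -0.307 without the 2 deepest, where its call ended, so 0 to 1 of the 7 were called lower with 1 library left out and 0 without the 2 deepest. The cause was not tested. Il1r1, near 0 throughout, was -0.010 with arrayWeights and ran from -0.018 to 0.037 with 1 library left out, and Rela from -0.107 to 0.039. Il1r1 was not tested at a mean FPKM of at least 5. Over all genes, 1357 were called higher and 1403 lower with arrayWeights. With 1 library left out 483 to 719 were higher and 412 to 618 lower, with counts over 1.5 times smaller without overexpression 2 (483 and 412), and for lower genes also without control 3 (484) or overexpression 1 (464), and 478 were lower without the 2 deepest. The median difference of all genes stayed within 0.015 of 0 in every alternative. Same-numbered libraries did not deviate together in every pair (correlations of 0.209, -0.294 and -0.027), so the numbers are taken as names only. The highest correlation, 0.418, was between the 2 deepest libraries, control 2 and overexpression 3. With a replicate block 688 genes were higher and 628 lower, and the 4 called genes of the 7 kept their calls while the other 3 stayed uncalled (Nfkbia 0.599, adjusted p = 0.00503). Depth limits Il1r1 most, with 283 reads in its shallowest library.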
